A study of Mus musculus with 20 samples.

Results

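A minority of m6A peaks in the 3' untranslated region (3' UTR) class of mouse thymocyte transcripts were not contiguous stretches of the genome. Each of these peaks was recorded as 2 or more blocks of exon separated by gaps, and the gaps are read here as splice junctions. The peaks described here were the rows of the 2 deposited peak tables whose annotation read 3' UTR and whose block count was 2 or more, with repeated coordinates kept once. The rule itself uses no measured difference between genotypes. There were 1308 such peaks among 13450 in CD4 and CD8 double-positive (DP) thymocytes and 430 among 12542 in invariant natural killer T (iNKT) thymocytes, or 1738 of 25992 in all. The DP peaks carried 1119 gene names and the iNKT peaks 407. They are called junction-spanning 3' UTR peaks below.

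The study compared wild-type (WT) C57BL/6 mice with Mettl3fl/flCD4-cre mice, in which a Cre recombinase under Cd4 control deletes floxed Mettl3 from the stage at which Cd4 is expressed. Mice were 6 to 8 weeks old per the labels, and both populations were sorted from thymus, DP cells as 7AAD- CD1d-Tet- CD4+ CD8+ and iNKT cells as 7AAD- CD1d-Tet+ TCRβ+. The 20 libraries fell into 8 groups by cell type, genotype and library type (input or m6A immunoprecipitate), with 2 replicates per group in DP cells and 3 in iNKT cells. Both m6A-seq and m6A-LACE-seq, which is meant for small amounts of RNA, appear in the protocols without being assigned to a cell type, so protocol and cell type cannot be told apart. The tables hold 1 value per peak and comparison and none per library. Values in single libraries, the spread between replicates, sequencing depth and the deletion of Mettl3 itself therefore could not be given, and the differences below are not set against replicate spread.

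N6-methyladenosine is the commonest internal mark of messenger RNA. It is deposited in the nucleus by a writer complex whose catalytic subunit is METTL3, and reader proteins of the YTH family bind it and affect splicing, export, translation and decay. The mark is enriched near stop codons, in long internal exons and in 3' UTRs, and is sparse close to splice junctions, where exon junction complexes limit access of the writer. Immunoprecipitated RNA fragments are longer than the distance from a junction to many marked sites, so a peak can extend across the junction into the neighbouring exon. DP thymocytes rearrange the T cell receptor alpha chain, and iNKT cells are a CD1d-restricted lineage that branches from them.

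Because the rule rests on block boundaries, the boundaries were first read against sequence where sequence was at hand. RefSeq promoter windows on GRCm38.p6, the mm10 build of the files, covered 13 block boundaries in 10 junction-spanning 3' UTR peaks. All 6 readable donor boundaries began the gap with GT. Of the 7 readable acceptor boundaries, 6 ended the gap with AG, and 1 ended it with AC. Examples are shown 5′ to 3′ on the strand of the peak, each with 10 bases on either side of the boundary and the 2 gap letters at the boundary in capitals.

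Ice1 acceptor, chr13:70614980-70614999, minus strand, gap of 84 nt: atgttttcAGagttgagaca

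Ice1 donor of the same gap, chr13:70615064-70615083, minus strand: aatgagaaggGTgagtattt

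Tomm22 acceptor, chr15:79666978-79666997, plus strand, gap of 1038 nt: ttacttccAGctttcagaaa

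Cep250 acceptor, chr2:155975661-155975680, plus strand, gap of 1187 nt: tctccctcAGgcacatcacc

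C2cd3 acceptor, chr7:100469369-100469388, plus strand, gap of 3821 nt: ttctctccAGgacaagagtg

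Mctp2 acceptor, chr7:72110574-72110593, minus strand, gap of 11114 nt: taagttagACaaaaggctgt

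The first 5 boundaries carry the letters of a standard intron end. The Mctp2 acceptor, from an iNKT peak, does not, and its 11114-nt gap is the exception among those read.

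A second reading came from microRNA hairpins. Of the hairpins with an entry in the RefSeq sequence table, some lay inside the interval of 10 junction-spanning 3' UTR peaks, in a gap in 9 of them and in a block at Mir7578. Hairpins without an entry, such as Mir6948, were not counted. In 5 peaks a mature 3p miRNA ended exactly on the last base of the gap, at a distance of 0 nt from the next block. All 5 end in AG, the letters of a 3' splice site, as miRNAs cut from the end of an intron do. They are shown to mark where the gap ends, with the seed (bases 2 to 8) in capitals, in RNA letters from RefSeq on GRCm38.p6.

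mmu-miR-6991-3p, gap of 180 nt in a peak on chromosome 19 within 2700081O15Rik: gCAGCCCUuuguucuucuccag

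mmu-miR-7030-3p, gap of 1933 nt in a peak on chromosome 5 within Rab35: cUUGCUCUguuaucucuccag

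mmu-miR-6897-3p, gap of 1780 nt in a peak on chromosome 1 within Uggt1: cGGUCUGUguucuucccccag

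mmu-miR-7017-3p, gap of 809 nt in a peak on chromosome 4 within Wasf2: aCCCUGCUccucucccuccag

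mmu-miR-7052-3p, gap of 233 nt in a peak on chromosome 7 within Josd2: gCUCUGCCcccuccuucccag

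No seed is shared among these 5. The deposited annotation had named these 5 peaks after the hairpins, as Mir6991, Mir7030, Mir6897, Mir7017 and Mir7052, and not after the genes they lie over. Which exons of those genes the blocks cover was not read. A DP peak named Mir15b, chr3:69009574-69018982, has 5 blocks and lies over Smc4, a condensin subunit gene. Its 6432-nt gap holds the hairpins of Mir15b and Mir16-2, whose 5p products share the seed AGCAGCA.

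mmu-miR-15b-5p: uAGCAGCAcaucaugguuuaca

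mmu-miR-16-5p: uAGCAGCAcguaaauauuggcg

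Both hairpins thus lay outside the blocks of that peak. The peak had 5.4-fold enrichment over input and -0.23 on the log2 scale between genotypes in the authors' deposited table. Of the 5 peaks whose gap ended with a 3p miRNA, the one within Wasf2, an actin regulator, was lower in iNKT cells (log2 fold change -1.68, log10 of the false discovery rate (FDR) -5.78, in the authors' deposited table).

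The blocks were unequal, and the 3'-most block was usually the largest. The 1308 DP peaks had 2409 gaps with a median of 1147 nt, and the 430 iNKT peaks had 537 gaps with a median of 801 nt. Gaps ran from 2 nt to 117598 nt in DP cells, and 5 gaps in each table were under 30 nt. Gaps this short, such as the 2-nt gap of the Tmsb10 peak in each table, need not be splice junctions, which was not checked. The last block had a median of 188 nt in DP cells against 68 nt for the first. In iNKT cells the medians were 123.5 nt and 54 nt. Among peaks of exactly 2 blocks, the last was longer in 589 of 760 DP peaks (77.5%) and in 239 of 346 iNKT peaks (69.1%). Among junction-spanning peaks annotated exon it was longer in 576 of 1086 and 330 of 712 (46.4%), so the weight toward the 3' side was larger in the 3' UTR class. Most peaks of 2 blocks therefore had the longer part downstream of the junction and the shorter part upstream. Over all block counts the last block was the longest in 823 of 1308 DP peaks (62.9%) and 264 of 430 iNKT peaks (61.4%). Block ends were set partly by the calling: 84.4% of DP and 89.3% of iNKT exonic lengths lay within 1 nt of a multiple of 30 nt.

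The 3' UTR annotation does not describe the whole of such a peak. The midpoint of the genomic interval fell in a block in 151 of the 1308 DP peaks (11.5%) and 55 of the 430 iNKT peaks (12.8%), and in a gap otherwise. Of the DP peaks, 1043 (79.7%) overlapped the RefSeq gene they were named after and were not placed on its other strand, 225 did not overlap it, 35 lay on the other strand and 5 had no symbol in the RefSeq table. The iNKT numbers were 310, 96, 24 and 0. The strand of the named gene was not read for 207 of the 1043 DP and 58 of the 310 iNKT peaks. Within the named gene, 63.7% of DP and 63.2% of iNKT peaks ended in the last 20% of the gene, against 75.1% and 80.2% of 3' UTR peaks of 1 block and 33.8% and 36.2% of junction-spanning exon peaks. The end lay in the 5' side of the gene, past its middle, in 12.2% and 12.6%. The label 3' UTR thus often, but not always, placed these peaks near the end of the named gene. Gene names are given below with the RefSeq protein-coding gene under the blocks where the names differ. A gene whose strand was not read could be given for a peak on either strand.

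Peaks were called by the authors' deposited differential FDR of 0.05. The direction of the log2 fold change is stated nowhere in the sources, and negative values are read as likely less m6A after Mettl3 deletion. The basis is that the deposited gene lists hold 4336 of 4337 DP genes and 5339 of 5343 iNKT genes with a negative peak, but none of the 2237 and 1326 genes with only positive peaks. The deletion also removes an m6A writer. Lower and higher below refer to this likely direction. All intervals are Wilson 95% intervals, which cover counting of peaks only.

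In iNKT cells lower junction-spanning 3' UTR peaks were common. Of 430, 199 were lower (46.3%, interval 41.6 to 51.0) beside 19.8% of all iNKT peaks, and 36 were higher (8.37%, interval 6.11 to 11.4) beside 5.84%. Among 3' UTR peaks of 1 block in the same table, 1059 of 5243 were lower (20.2%) and 258 higher (4.92%). The junction-spanning class made up 3.43% of iNKT peaks and 8.00% of all lower ones. Its median log2 fold change was -1.82, against -0.95 for 1-block 3' UTR peaks and -0.98 for all peaks. Of the 199 lower peaks, 196 differed by at least 2-fold, with a median log2 fold change of -3.65. Junction-spanning exon peaks came close, with 38.0% lower and a median of -1.59.

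In DP cells few peaks of any kind passed, and among those that did the junction-spanning class held more lower than higher peaks. Of 1308 junction-spanning 3' UTR peaks, 23 were lower (1.76%, interval 1.18 to 2.63) beside 0.743% of all DP peaks, and 8 were higher (0.612%, interval 0.310 to 1.20) beside 0.483%. Of 4811 1-block 3' UTR peaks, 5 were lower (0.104%) and 30 were higher (0.624%). Of 2064 junction-spanning exon peaks, 49 were lower (2.37%) and 6 were higher (0.291%). The excess of lower over higher calls was thus not particular to the 3' UTR class. The junction-spanning 3' UTR peaks were 9.73% of the table and 23.0% of its 100 lower peaks. Their median log2 fold change was -0.06, against 0.08 for 1-block 3' UTR peaks, -0.11 for junction-spanning exon peaks and 0.0 for all peaks. The excess of lower over higher calls lay in peaks of 3 or more blocks, since the 760 peaks of 2 blocks had 3 lower and 3 higher. At a fold enrichment of at least 4 there were 5 lower and 5 higher. Only 1 of the 23 lower peaks differed by at least 2-fold, and their median was -0.44. The distributions of the log2 fold change show a shift toward negative values in both tables, small in DP cells and large in iNKT cells.

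**Figure D1:**
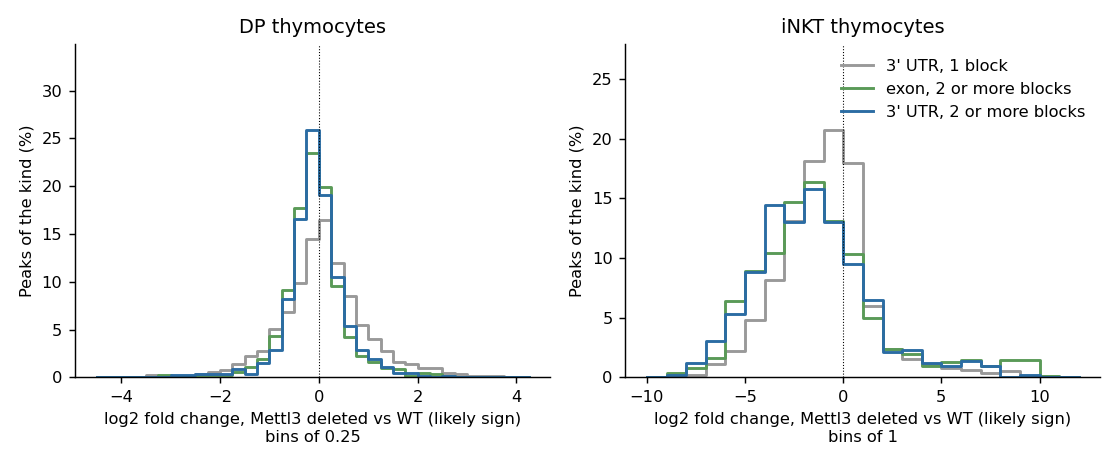
Share of peaks (%) by log2 fold change between genotypes in DP (left) and iNKT (right) thymocytes, for 3' UTR peaks of 1 block, exon peaks of 2 or more blocks and 3' UTR peaks of 2 or more blocks. The junction-spanning 3' UTR peaks have medians of -0.06 and -1.82, below those of 1-block 3' UTR peaks at 0.08 and -0.95; the horizontal scales of the panels differ.

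The share of lower peaks rose with the number of blocks in iNKT cells, and up to 4 blocks in DP cells. In iNKT cells it was 20.2% at 1 block, 42.2% (146 of 346) at 2 blocks, 55.4% (36 of 65) at 3, 87.5% (14 of 16) at 4 and 3 of 3 at 5 or more. In DP cells it was 0.104% at 1 block, 0.395% (3 of 760) at 2, 1.84% (5 of 272) at 3, 6.71% (10 of 149) at 4 and 3.94% (5 of 127) at 5 or more. Peaks just inside the rule, with 2 blocks, thus stood close to 1-block peaks in DP cells and apart from them in iNKT cells. No peak of 5 or more blocks was higher in either table.

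**Figure D2:**
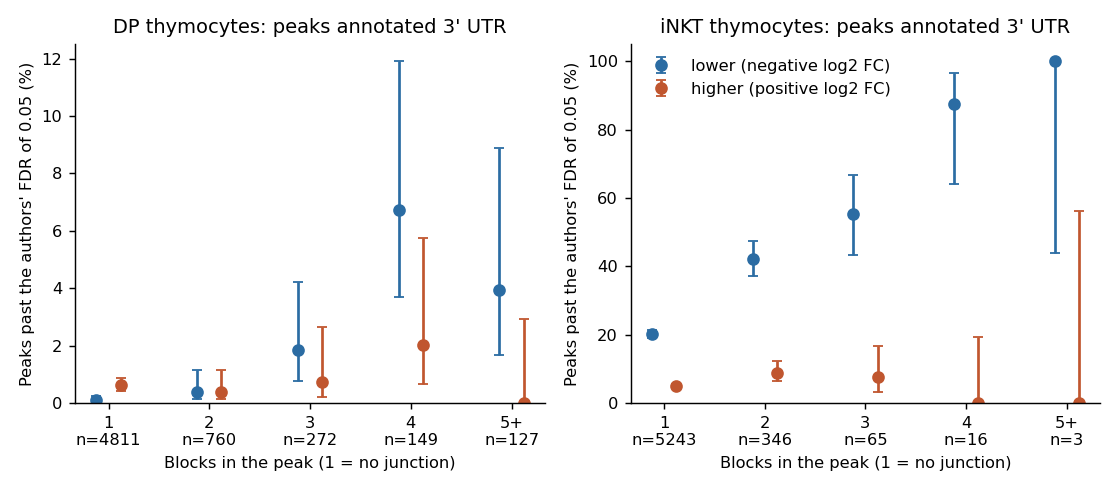
Share of 3' UTR peaks (%) past the authors' differential FDR of 0.05 by number of blocks, for DP (left) and iNKT (right) cells, with Wilson 95% intervals and the number of peaks under each point. The lower share climbs from 20.2% at 1 block to 87.5% at 4 blocks in iNKT cells, and from 0.104% to 6.71% in DP cells. In DP cells it is 3.94% at 5 or more blocks. The vertical scales differ.

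Peaks with more blocks are also longer and stronger, and these properties moved with the calls. Junction-spanning 3' UTR peaks covered 389 nt of exon at the median in DP thymocytes and 236.5 nt in iNKT thymocytes, where 1-block 3' UTR peaks covered 240 nt and 181 nt. Within each of 5 ranges of exonic length the junction-spanning share in iNKT cells was the higher one, by differing amounts. The kinds of peak still differed in strength within these ranges, as given below. Up to 150 nt, 5 of 59 junction-spanning peaks (8.47%, interval 3.67 to 18.4) were lower against 37 of 1616 (2.29%, interval 1.67 to 3.14). From 151 to 210 nt, 45 of 129 junction-spanning peaks (34.9%) were lower against 158 of 1472 (10.7%). From 211 to 270 nt the counts were 52 of 94 (55.3%) against 240 of 922 (26.0%). From 271 to 390 nt they were 50 of 81 (61.7%) against 310 of 720 (43.1%). Over 390 nt they were 47 of 67 (70.1%, interval 58.3 to 79.8) against 314 of 513 (61.2%, interval 56.9 to 65.3), and these intervals overlap. In DP cells all 23 lower junction-spanning peaks were over 270 nt. Over 390 nt, 16 of 632 were lower (2.53%) against 2 of 1053 1-block peaks (0.190%). Of junction-spanning exon peaks over 390 nt in DP cells, 31 of 687 were lower. In iNKT cells the lower shares of junction-spanning exon peaks were 9.96%, 29.5%, 56.3%, 68.1% and 76.0%, from the shortest range to the longest. These also exceeded the shares of 1-block 3' UTR peaks in each range. The excess within length ranges was thus not particular to the 3' UTR class.

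The p-value of the peak itself measures how clearly it stood above input. Among the strongest 20% of all iNKT peaks by this p-value, 156 of 188 junction-spanning peaks were lower (83.0%, interval 77.0 to 87.7) against 789 of 1123 1-block peaks (70.3%, interval 67.5 to 72.9). Within that group, peaks of up to 270 nt were lower in 68 of 81 cases (84.0%) against 234 of 360 (65.0%). Longer ones were lower in 88 of 107 (82.2%) against 555 of 763 (72.7%). In the weakest 20% none of 38 junction-spanning peaks was lower and 7 were higher (18.4%, interval 9.22 to 33.4). Of 905 1-block peaks there, 0 were lower and 41 were higher (4.53%, interval 3.36 to 6.09). In DP cells the strongest 20% held 18 of the 23 lower peaks, 18 of 561 (3.21%) against 3 of 697 1-block peaks (0.430%). These strata were not matched. In the strongest 20% of iNKT peaks the median log10 peak p-value was -769 for junction-spanning and -419 for 1-block peaks. Among iNKT peaks of 211 to 270 nt the medians were -195.5 and -67.7, and over 390 nt they were -957 and -397. Up to 150 nt the median lengths were 117 nt and 91 nt. The part of length and strength in the difference between kinds of peak was not tested beyond these strata.

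**Figure D3:**
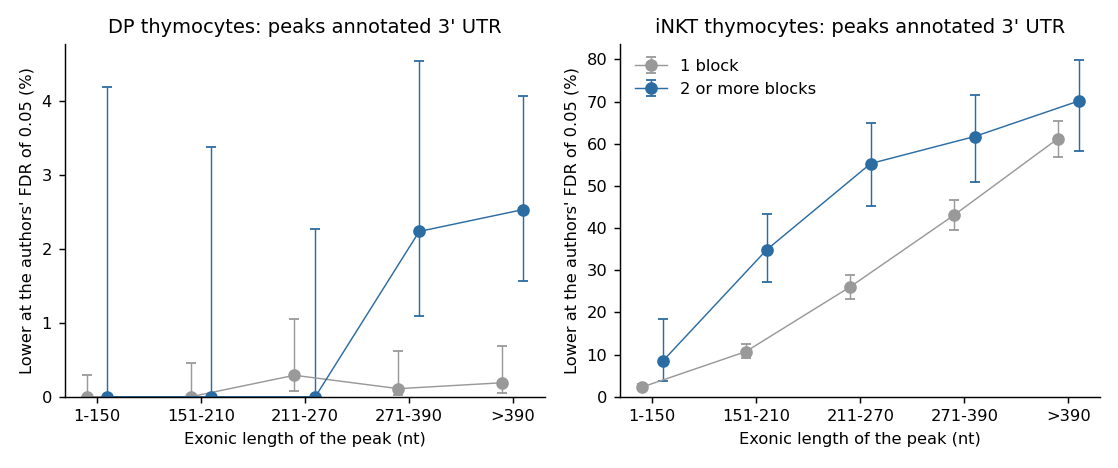
Share of 3' UTR peaks lower at the authors' differential FDR of 0.05 (%) by exonic length, for peaks of 1 block and of 2 or more blocks, in DP (left) and iNKT (right) cells, with Wilson 95% intervals. In iNKT cells the junction-spanning peaks lie above at 34.9% against 10.7% from 151 to 210 nt, and the intervals overlap over 390 nt; the vertical scales differ.

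The comparison could also be made between peaks of both kinds that carried the same deposited gene name. Whether both lay in the same transcript was not checked. There were 177 such genes in iNKT cells. Their junction-spanning peaks had a median of -1.45 on the log2 scale and their 1-block peaks one of -0.97, with the junction-spanning value more negative in 99 genes and less negative in 77. In 35 genes both kinds held a lower peak, in 37 the junction-spanning kind alone, and in 25 the 1-block kind alone. In the 387 DP genes with both, the medians were -0.03 and -0.03, and the junction-spanning value was more negative in 200 and less negative in 187. The difference between kinds seen over all DP peaks did not appear in the medians by gene name.

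Other features of the peaks moved less. In iNKT cells, peaks in the last 20% of the named gene were lower in 109 of 196 cases (55.6%) and those farther upstream in 45 of 114 (39.5%), and the median log10 peak p-values were -128 and -32.4. In DP cells the corresponding counts were 10 of 664 and 10 of 379, and all 7 higher peaks placed in the named gene lay in the last 20%. Whether the last block was the longest made little difference in iNKT cells, with 48.5% lower against 42.8%. In DP cells the share was 1.09% where it was longest and 2.89% where another block was. The length of the longest gap gave no ordered series in iNKT cells, with 43.7% lower up to 500 nt, 51.8% from there to 2000 nt and 42.0% above.

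The smallest FDRs among lower DP peaks belonged to Rpl19, Ezr, Stmn1 and Ppp1r9b. In Rpl19, a protein of the large ribosomal subunit, a 3-block peak of 351 nt on chr11:98029440-98030434 had -0.321 on the log2 scale (FDR 4.4e-08) in the authors' deposited table. In Ezr, which encodes the membrane to actin linker ezrin, a 9-block peak of 1376 nt had -0.204 (FDR 5.1e-08) in the authors' deposited table. Stmn1 encodes stathmin, which destabilises microtubules, and its 3-block peak had -0.303 (FDR 5.8e-06) in the authors' deposited table. Ppp1r9b, a regulatory subunit that targets protein phosphatase to actin, had a 9-block peak at -0.299 (FDR 6.8e-06) in the authors' deposited table. All 4 values are small in size, and the peaks had 3 blocks in Rpl19 and Stmn1 and 9 in Ezr and Ppp1r9b. Fold enrichment over input was only 1.47 in Rpl19, and 2.45 in Ppp1r9b, 2.98 in Ezr and 5.59 in Stmn1, in the authors' deposited table.

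Some of the other lower DP peaks had values of larger size. The 4-block peak of Cdc5l, a core component of a spliceosomal complex, had -0.855 on the log2 scale (FDR 0.0062) in the authors' deposited table. Son, a nuclear speckle splicing factor, had -0.601 (FDR 0.0017) in the authors' deposited table. Sf1, which binds the branch point, had -0.475 (FDR 0.0042) in the authors' deposited table. Mcm2, a subunit of the replicative helicase, had -0.616 (FDR 0.0098) and Cul3, the scaffold of a ubiquitin ligase, -0.787 (FDR 0.034) in the authors' deposited table. The only lower DP peak past 2-fold, at -2.57 (FDR 0.043) in the authors' deposited table, was a 2-block peak named Trim37 on chr11:87121918-87123779. That peak did not overlap Trim37 and had no RefSeq protein-coding gene on its strand; Ska2 lies there on the other strand. Peaks named Eif2s2 (-0.4, FDR 0.00027) and Agap2 (-0.29, FDR 0.0041) in the authors' deposited table lay over Raly, an RNA-binding protein gene, and Os9, an endoplasmic reticulum lectin gene. Fold enrichment over input was only 1.28 in the Eif2s2 peak, 1.49 in Sf1 and 1.9 in Son. In the other peaks of this paragraph it ran from 2.17 in Mcm2 to 6.33 in the Trim37 peak, in the authors' deposited table.

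The 8 higher DP peaks were few enough to name in full. The largest was in 4921524J17Rik at 1.52 (FDR 0.00091) in the authors' deposited table. Sde2 had 1.16 (FDR 0.032), and a 3-block peak named Mir7021, which lies over Prdm2, a histone methyltransferase gene, had 1.0 (FDR 0.00019) in the authors' deposited table. Slc25a37, the mitochondrial iron importer mitoferrin, had 0.626 (FDR 0.036), and Cdv3 had 0.546 (FDR 0.012) in the authors' deposited table. Csnk1e, a casein kinase gene, had 0.352 (FDR 0.037), Tmsb4x, which encodes an actin-sequestering peptide, 0.339 (FDR 0.018), and Ptms, which encodes parathymosin, 0.235 (FDR 0.00079) in the authors' deposited table.

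In iNKT cells the smallest FDRs belonged to lower peaks, among them those over Rbm25, Anp32a, Anp32b, Ptma, Snrnp70 and Acin1. The log10 FDR reached -434, the lowest value of the table, in 21 peaks, of which 7 were junction-spanning 3' UTR peaks. Rbm25, a splicing regulator, had a 6-block peak of 1109 nt on chr12:83663912-83674567 whose log2 fold change was -6.13, at 49.4-fold enrichment over input, in the authors' deposited table. Anp32a, an acidic nuclear phosphoprotein, had a 4-block peak of 509 nt with -5.95 in the authors' deposited table. Ptma, which encodes prothymosin alpha, had a 4-block peak of 329 nt with -3.11 in the authors' deposited table. Snrnp70, a protein of the U1 small nuclear ribonucleoprotein, had 45 nt in its first block and 796 nt in its last, with -2.91 in the authors' deposited table. The names of 2 others were those of a neighbour and of a miRNA gene within the interval. The peak named Nans lay over Anp32b (-5.35), and the one named Mir6948 over Acin1, an apoptosis and splicing factor gene (-4.84), in the authors' deposited table.

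The 10 lower iNKT peaks of largest size had log2 fold changes from -8.92 to -6.43 in the authors' deposited table. Supt5, an elongation factor of RNA polymerase II, stood lowest at -8.92 over 3 blocks on chr7:28330610-28338000 in the authors' deposited table. Srpk2, a kinase of splicing factors, had -7.03, and Luc7l2, a protein associated with the U1 particle, had -6.58 in the authors' deposited table. Akap8, a nuclear anchoring protein, had -7.33, and Chd2, a chromatin remodeller, -6.49 in the authors' deposited table. The others were Ppm1g, a phosphatase gene (-7.63), Rabl6 (-7.47), Lyar (-7.4), Hsp90b1, an endoplasmic reticulum chaperone gene (-6.75), and Foxo3 (-6.43) in the authors' deposited table. The Luc7l2 peak had 90 of its 91 nt in one block and 1 nt in the next. The Lyar peak likewise had 1 nt in its first block and 267 nt in its last. Fold enrichment over input was only 1.48 in that Luc7l2 peak and 2.73 in the Akap8 peak. A second Luc7l2 peak, of 4 blocks and 6.69-fold enrichment, had -3.29 (FDR 1.6e-86) in the authors' deposited table.

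**Figure D4:**
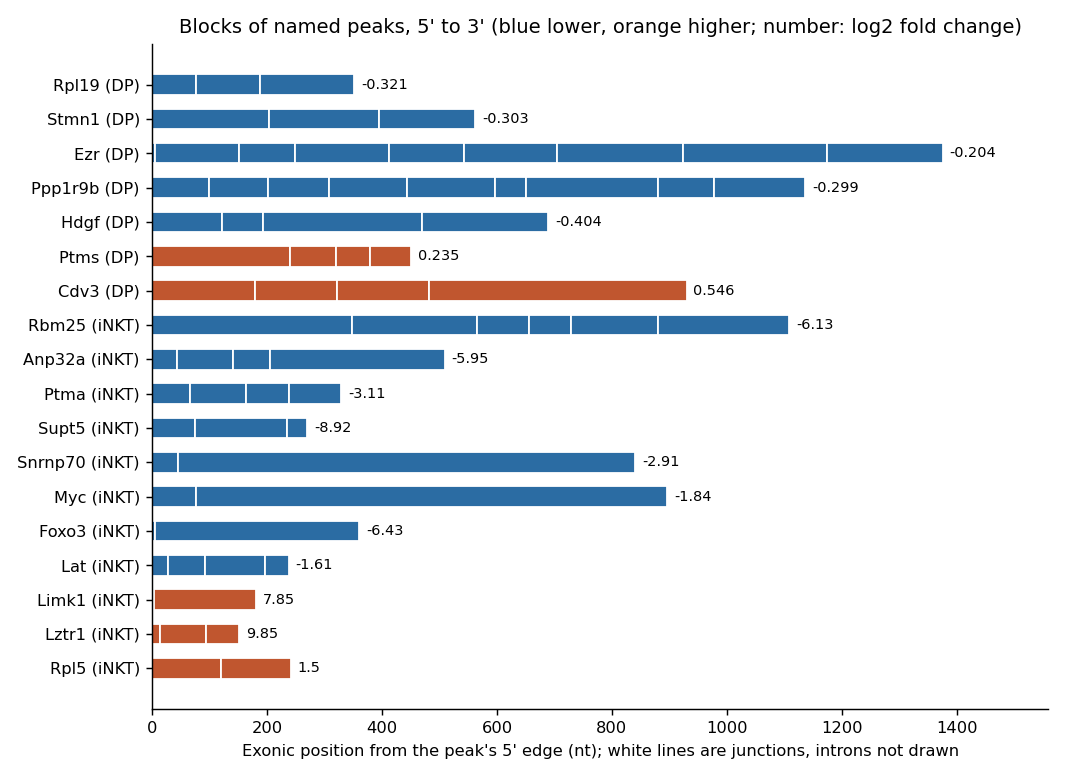
Blocks of 18 named junction-spanning 3' UTR peaks drawn 5' to 3' by exonic length in nt, with junctions as white lines, introns left out, and the log2 fold change at the right of each bar. DP peaks such as Ezr and Ppp1r9b, each of 9 blocks, carry small values of -0.204 and -0.299, and iNKT peaks range from -8.92 in Supt5 to 9.85 in Lztr1.

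The 36 higher iNKT peaks were shorter and had fewer blocks, with a median of 205.5 nt against 270 nt for the lower ones and a median log2 fold change of 4.01. Their peak p-values were weaker too, with a median log10 of -21.2 against -482. The largest was in Lztr1, an adaptor of a ubiquitin ligase, at 9.85 (FDR 2e-14) over 151 nt in the authors' deposited table. Limk1, a kinase that acts on cofilin, had 7.85 (FDR 2.5e-15) in the authors' deposited table. In Limk1 the first block held 2 nt and the last 178 nt, so that peak barely crossed its junction. Higher peaks with the names Shisa3, H2ax, Snord72 and Mir144 lay over Atp8a1 (7.67), Dpagt1 (7.49), Rpl37 (6.86) and Flot2 (6.56) in the authors' deposited table. Rpl5, a large ribosomal subunit protein, had 1.5 (FDR 1e-48), and Rasal3, a regulator of Ras in T cells, had 4.63 (FDR 1.3e-69) in the authors' deposited table. Inpp5d, the SHIP1 phosphatase gene, had 1.75 (FDR 0.0083) in the authors' deposited table. The smallest FDR among higher peaks, 1e-188, belonged to a peak named P2rx1 that lay over Atp2a3, a calcium pump gene of the endoplasmic reticulum, with 3.96 in the authors' deposited table.

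The 15 lists of genes by function were set against these peaks. A gene name put a peak on a list, so a listed peak can lie over another gene. The counts are descriptions beside the shares of the whole class, of which 46.3% were lower and 8.37% higher in iNKT cells and 1.76% and 0.612% in DP cells. Chromatin regulators had 14 junction-spanning 3' UTR peaks in 13 genes in iNKT cells, and 12 peaks in 11 genes were lower and none higher. Of the 12, 11 lay within the named gene, and the peak named Kdm3b lay over Fam53c (-2.77 in the authors' deposited table). They included Brd2 (-3.03), the histone methyltransferase Ezh2 (-4.08), the deacetylase Hdac5 (-2.75), the ATPase Smarca2 (-2.33) and the cohesin subunit Smc1a (-3.55) in the authors' deposited table. The 2 that did not pass were Kdm6a (-2.71, FDR 0.18) and Dot1l (-0.905, FDR 0.67) in the authors' deposited table. In DP cells the same list had 45 peaks, of which 1 was lower.

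Splicing and RNA-binding proteins had 12 peaks in iNKT cells, 9 of them lower and none higher, with a median log2 fold change of -3.95. Of the 9, 8 lay within the named gene, and the one named Rbm15b lay over Dcaf1. Rbm39 had -4.93 (FDR 1e-280), and Hnrnpdl, a heterogeneous nuclear ribonucleoprotein, had -1.49 (FDR 7.9e-41) in the authors' deposited table. Sfpq, a splicing factor of paraspeckles, had -4.29 and Snrpd1, a core Sm protein, -3.73 in the authors' deposited table. Cstf1, of the cleavage stimulation factor, did not pass at -2.71 (FDR 0.052) in the authors' deposited table. In DP cells the list had 60 peaks with 2 lower, Hnrnpdl and Son, and none higher. The list does not hold every gene of its kind: Cdc5l and Sf1, both lower in DP cells, are not on it.

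All 4 iNKT peaks in thymocyte and iNKT transcription factors were lower. Foxo3, a forkhead factor of quiescence, had -6.43 (FDR 4.4e-06), Foxp1 -6.41 (FDR 2.9e-05), Fosl2, an AP-1 subunit, -4.31 (FDR 3.2e-51), and Myc -1.84 (FDR 1.7e-06) in the authors' deposited table. Of these, 3 were among the 5 junction-spanning 3' UTR peaks of the iNKT table with the highest fold enrichment over input, at 261 in Foxp1, 222 in Fosl2 and 114 in Foxo3 in the authors' deposited table. The highest, 491 in Rpgrip1, did not pass at -5.21 (FDR 0.16) in the authors' deposited table. In DP cells none of the 8 peaks of the list passed, including Foxo1, a forkhead factor of naive T cells, at 1.07 (FDR 0.45) in the authors' deposited table.

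T cell receptor signalling had 4 iNKT peaks, with the adaptor Lat at -1.61 (FDR 2.5e-63) and the phosphatase Ptpn6 at -2.24 (FDR 6.3e-27) lower in the authors' deposited table. The diacylglycerol kinase Dgkz did not pass at -2.84 (FDR 0.071) in the authors' deposited table, and the peak named Cd3e lay on the strand opposite to that gene. None of the 10 DP peaks of that list passed. Cytoskeleton and trafficking names were carried by 18 iNKT peaks, 9 lower and 2 higher. Of the 18, 12 lay within the named gene, and so did 5 of the 9 lower ones. The other 4 lower peaks, named Rab43, Arpc1b, Arhgap45 and Snx4, lay over Isy1 (-2.73), Pdap1 (-5.09), Abca7 (-4.6) and Osbpl11 (-3.75) in the authors' deposited table. Rdx, the ezrin relative radixin, had -3.72 (FDR 5e-34) and Sec62, of the protein translocation machinery, -4.78 (FDR 1e-134) in the authors' deposited table. The 2 higher were Kif21b, a kinesin gene (3.27), and Tmsb10, a thymosin gene (0.486), in the authors' deposited table. Ubiquitin ligases and deubiquitinases had 5 iNKT peaks with none lower and 1 higher; that peak, named Rnf167, lay over Pfn1, the profilin gene, at 0.592 (FDR 7.2e-07) in the authors' deposited table. Ribosomal proteins and translation factors had 3 iNKT peaks: Eif3d (-5.15) and Rpl41 (-1.6) were lower and Rpl5 was higher in the authors' deposited table.

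Of the other lists, cell cycle, replication and DNA repair had 5 iNKT peaks, 2 lower and 1 higher, with the cell cycle factor E2f2 at -1.96 (FDR 0.014) and a peak named after the kinase Cdk17 at 1.98 (FDR 4.6e-07) in the authors' deposited table. The blocks of the latter covered more of Elk3, an ETS transcription factor gene, than of Cdk17. The other lower one was Polr2a, at -2.74 (FDR 2.5e-77) in the authors' deposited table, which encodes the largest subunit of RNA polymerase II, a transcription enzyme and not a replication one. Apoptosis and p53 genes had 3 iNKT and 5 DP peaks, none of which passed. The PI3K, Akt and mTOR list had 3 iNKT peaks, 2 lower (Foxo3 and one named Hif1a that lay over Prkch) and 1 higher (Inpp5d). The single iNKT peaks of the cytokine receptor list (Irf3, -4.18) and of the migration list (Selplg, the P-selectin ligand gene, -1.97) were lower in the authors' deposited table. The m6A writer complex had 4 DP peaks, none of which passed, with the regulatory subunit Wtap at -0.656 (FDR 0.12) in the authors' deposited table. Its only iNKT peak, named Rbm15b, lay over Dcaf1. The m6A readers and erasers had 5 DP peaks, none of which passed, with Ythdf3 at 0.42 (FDR 0.33) and Ythdc1 at -0.299 (FDR 0.43) in the authors' deposited table. Markers of other thymus cell types had 0 junction-spanning 3' UTR peaks in either table. Only 1 gene of that list had a peak of any kind in each, so the 0 cannot show which cells were present.

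Some gene names were carried by several of these peaks, and many more by 1. In DP cells 971 genes had 1 peak and 148 had more, up to 5 in Cep250, a centrosomal linker gene, and in Sltm, a gene of chromatin and RNA binding. Of the 5 named Cep250, 1 of 8 blocks was lower at -0.469 (FDR 0.04), and the others ran from -0.697 to 0.767 in the authors' deposited table. Of those 5, 2 lay on the opposite strand. None of the 4 Sltm peaks within the gene passed, with values from -0.492 to -0.122 in the authors' deposited table. In iNKT cells 20 genes had more than 1 peak, up to 3. The 3 named Mrpl53 had 1.63, 0.379 and 1.04, none of which passed, in the authors' deposited table. They lay over Ccdc142, whose strand was not read, on both strands. Those on the plus strand overlapped each other. Clasrp, which acts on SR splicing proteins, had -4.45 and -3.11, both lower, and -0.101 in the authors' deposited table. Sfswap, a splicing regulator, had -2.45 and -3.2, both lower, and -1.21 in the authors' deposited table.

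The extremes of structure lay mostly in DP cells and mostly without a difference between genotypes. Ktn1, a kinectin gene, had 19 blocks over 1799 nt at -0.0892 (FDR 0.63) in the authors' deposited table. The peak in Mki67, which encodes the Ki-67 proliferation antigen, was the longest with 8354 nt, of which 1 block held 6836 nt, and had -0.0551 (FDR 0.53) in the authors' deposited table. The peak in Ankrd11 joined 37 nt to a block of 4101 nt and had 0.0392 (FDR 0.61) in the authors' deposited table. In iNKT cells the longest was the Polr2a peak, with 18 nt in its first block and 1211 nt in its last.

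Junction-spanning 3' UTR peaks of the 2 cell types formed 147 overlapping pairs, in which a peak could enter more than 1 pair. Peaks were matched when they lay on one strand and had 1 or more exonic bases in common, which gave 147 pairs from 144 peaks of each table, and 137 pairs shared an identical junction. In iNKT cells 107 of those 144 peaks were lower (74.3%, interval 66.6 to 80.8) and 3 were higher. In DP cells 7 were lower and 1 was higher. Over the pairs the median log2 fold change was -3.54 in iNKT cells and -0.06 in DP cells, and the iNKT value was below the DP value in 132 pairs. The DP peak was the longer one in 118 pairs, with a median of 511 nt against 270 nt. The tables were made separately, perhaps by different protocols, so the sizes of their log2 fold changes may not be on one footing.

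**Figure D5:**
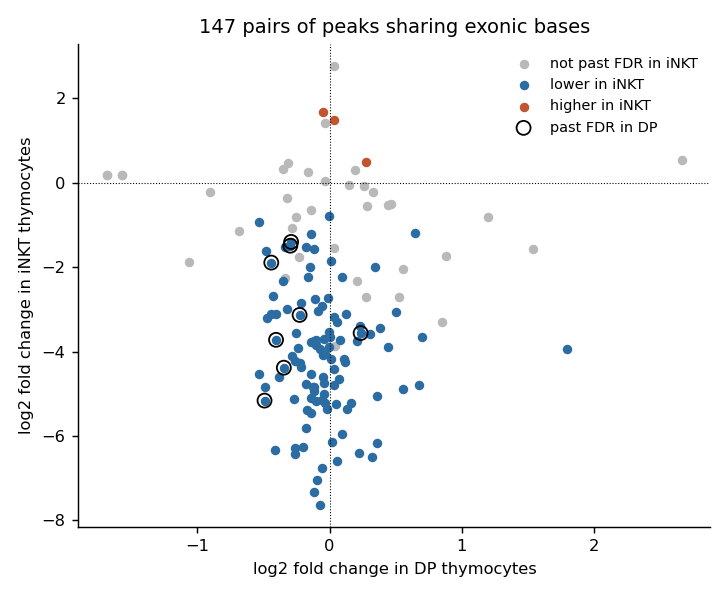
log2 fold change in DP thymocytes (x) and iNKT thymocytes (y) for 147 pairs of junction-spanning 3' UTR peaks that share exonic bases; colour gives the iNKT call and black rings mark pairs past the FDR of 0.05 in DP cells. Most points lie far below 0 on the iNKT axis and near 0 on the DP axis, with medians of -3.54 and -0.06.

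All 7 pairs lower in DP cells were lower in iNKT cells as well. Hdgf, a growth factor that binds chromatin, had -0.404 (FDR 0.00016) in DP and -3.72 (FDR 1e-61) in iNKT cells in the authors' deposited tables. Hcls1, a cortactin relative of blood cells, had -0.44 and -1.89 in the authors' deposited tables. Hnrnpdl had -0.296 and -1.49, Safb2 -0.226 and -3.13, and Cntrl, which encodes centriolin, -0.491 and -5.16 in the authors' deposited tables. Another, named Agap2 and lying over Os9, had -0.29 and -1.4 in the authors' deposited tables. Ptms went opposite ways, at 0.235 in DP cells and -3.56 in iNKT cells, where its log10 FDR was -305 in the authors' deposited tables. Large iNKT values often faced DP values near 0: Ppm1g had -7.63 against -0.0708, Hsp90b1 -6.75 against -0.054, Chd2 -6.49 against 0.322 and Rbm25 -6.13 against 0.0174 in the authors' deposited tables. The Rbm25 peaks had 6 blocks in each cell type and shared 1049 nt and 5 junctions, so that pair compared nearly the same stretch of RNA.

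Most junction-spanning 3' UTR peaks had no such counterpart. Of the DP peaks, 782 (59.8%) overlapped no iNKT peak, and 309 overlapped a 1-block 3' UTR peak of the iNKT table and no junction-spanning 3' UTR peak. The 347 1-block iNKT 3' UTR peaks that overlapped a DP junction-spanning one were lower in 172 cases (49.6%, interval 44.3 to 54.8), against 74.3% of the junction-spanning counterparts. Of the iNKT peaks, 202 overlapped no DP peak, and 40 of these were lower (19.8%, interval 14.9 to 25.8) and 30 higher (14.9%, interval 10.6 to 20.4). The iNKT peaks without a DP counterpart thus had the share of lower calls of the whole iNKT table. They held 30 of the 36 higher calls. They were also weaker, with a median log10 peak p-value of -27.8 against -373 for those with a junction-spanning DP counterpart, and the part of strength in this contrast was not tested.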

How the data were processed

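m6A and input libraries of DP and iNKT thymocytes were compared between genotypes by the authors. The submitters' processing notes name HOMER 4.9.1, RSEM 1.3.0, STAR 2.6.0a, Trim Galore 0.6.5 and FastQC 0.11.5, and the mm10 build. The titles of the deposited tables name exomePeak; no source used here gives its version, its settings or the pooling of replicates. Per the file headers, the deposited tables list for every peak its exon blocks, its p-value, its linear fold enrichment (immunoprecipitate over input) and the log2 fold change between genotypes. The deposited log10 p-values and FDRs were treated as scores. The deposited gene lists give names and no values. No deposited value belongs to a single library, so depth and replicate spread are unknown and no count model was used.

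Repeated coordinates were kept once, which removed 5 DP and 24 iNKT rows. Coordinates are 1-based. Peaks passing the authors' FDR of 0.05 were counted by sign, with Wilson 95% intervals, beside the same over all peaks. No test was added, because peaks are not replicates. Gene positions came from RefSeq (GRCm38.p6), in which 1303 of 1308 DP and 430 of 430 iNKT symbols matched. Matching of peaks was tested on simulated data. The members of the class, the 15 gene lists and the rules were chosen with earlier results of these data known. Named peaks were those with the largest fold changes in each direction, smallest FDR, largest enrichment, most blocks, greatest length or gap, matched pairs, and up to 4 per list; others named (such as P2rx1, Rasal3, the remaining list members and genes with most peaks) were chosen after their values were seen. Alternatives were an FDR of 0.01, an enrichment of at least 4, 3 or more blocks, repeats kept, peaks within the named gene, the sign turned, and stricter matching. Scripts ran in Python 3.11.15 with pandas 2.3.3, numpy 2.4.6, matplotlib 3.10.9 and SciPy 1.17.1. Items withheld for evaluation are not reported here.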

Additional observations from a re-analysis of the deposited data

How the results depend on the processing

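With an FDR of 0.01, lower junction-spanning 3' UTR peaks in DP cells numbered 12 and higher ones 3. With a fold enrichment of at least 4 there were 5 lower and 5 higher DP peaks, and the DP median log2 fold change was -0.0134. With 3 or more blocks the DP table had 20 lower and 5 higher peaks and a median of -0.1001, and the iNKT table had 53 lower and 5 higher peaks of 84 and a median of -2.88. With the sign turned, 8 DP peaks were lower and 23 higher, and 36 iNKT peaks were lower and 199 higher. The other alternatives left each count within 1.5 times its value: lower iNKT peaks numbered 174 at an FDR of 0.01, 166 at an enrichment of at least 4 and 154 within the named gene, and matched pairs numbered 137 by either stricter rule. No paired analysis was possible because the tables hold no values per library, and for the same reason leaving out a replicate could not be run. The DP calls rest on few peaks, and what depth limits cannot be stated because it is unknown.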
